A study of Mus musculus with 4 samples.

Results

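The genes described are 39 sarcomere and heart muscle genes of the mouse embryo. They are the genes of a list of contractile, Z-disc, calcium handling and associated heart muscle genes whose probe sets carry a single symbol in the platform annotation, taken without any filter on intensity. All 39 were found, on 85 of the 45101 probe sets, and for each gene the probe set with the highest mean log2 intensity over the arrays was used, as it was for all 18193 genes of the table. Tissue was taken from ARC/s embryos at embryonic day 8.5 with 4 to 5 somites (1 source label gives 3 as the lower end), with no mutation or treatment named. Foregut endoderm came from the anterior intestinal portal, and the comparison tissue was the heart mesoderm pooled with the mesoderm and ectoderm of the head, called mesoderm/ectoderm here. Each tissue had 2 arrays, numbered 1 and 2, and each array carried RNA of 15 to 20 pooled tissue pieces. Tissues numbered 1 were separated by hand alone and tissues numbered 2 with trypsin and pancreatin as well, so experiment and dissection cannot be told apart.

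The sarcomere is the contractile unit of striated muscle. Thick filaments of myosin pull on thin filaments of actin, which are anchored at the Z-disc, and titin spans from the Z-disc to the M-band in the middle. Calcium released from the sarcoplasmic reticulum binds troponin C and moves tropomyosin off the myosin binding sites. In the mouse the heart tube forms and starts to beat at about the stage sampled here, and it lies directly against the foregut endoderm of the anterior intestinal portal.

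Promoter sequences are shown for 6 of these genes because their levels followed different courses over the 4 arrays. The actin gene Actc1, the atrial myosin light chain gene Myl7 and the cardiac troponin T gene Tnnt2 were high on 1 array of either tissue. The natriuretic peptide gene Nppa and the cardiac troponin I gene Tnni3 were high on 1 array only, and the phospholamban gene Pln was dim on all 4. The windows run from 250 bases before to 50 bases after a RefSeq transcript start in GRCm38.p6 and are written 5′ to 3′ on the strand of the gene. Capitals mark matches, on either strand, to the motifs described in the next paragraph. A further Tnnt2 window, chr1:135836739-135837038, held 0 matches and is not shown.
Actc1 promoter, chr2:114052826-114053125, minus strand: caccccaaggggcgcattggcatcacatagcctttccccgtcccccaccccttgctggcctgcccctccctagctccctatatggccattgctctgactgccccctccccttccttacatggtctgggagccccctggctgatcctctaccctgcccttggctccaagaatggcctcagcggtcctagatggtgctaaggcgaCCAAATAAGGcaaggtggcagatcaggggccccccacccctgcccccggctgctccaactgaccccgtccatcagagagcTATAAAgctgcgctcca
Myl7 promoter, chr11:5898733-5899032, minus strand: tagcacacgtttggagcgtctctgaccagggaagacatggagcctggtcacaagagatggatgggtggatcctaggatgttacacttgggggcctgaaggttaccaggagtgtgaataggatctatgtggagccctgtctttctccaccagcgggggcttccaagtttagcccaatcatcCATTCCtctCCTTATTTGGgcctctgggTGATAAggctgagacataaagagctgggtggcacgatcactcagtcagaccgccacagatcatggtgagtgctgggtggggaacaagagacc
Tnnt2 promoter, chr1:135836084-135836383, plus strand: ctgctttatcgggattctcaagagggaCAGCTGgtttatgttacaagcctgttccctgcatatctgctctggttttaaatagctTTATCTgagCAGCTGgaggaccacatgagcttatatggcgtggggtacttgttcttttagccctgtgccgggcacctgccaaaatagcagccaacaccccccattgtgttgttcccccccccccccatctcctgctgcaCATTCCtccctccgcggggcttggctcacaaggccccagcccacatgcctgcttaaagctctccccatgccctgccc
Nppa promoter, chr4:148000472-148000771, plus strand: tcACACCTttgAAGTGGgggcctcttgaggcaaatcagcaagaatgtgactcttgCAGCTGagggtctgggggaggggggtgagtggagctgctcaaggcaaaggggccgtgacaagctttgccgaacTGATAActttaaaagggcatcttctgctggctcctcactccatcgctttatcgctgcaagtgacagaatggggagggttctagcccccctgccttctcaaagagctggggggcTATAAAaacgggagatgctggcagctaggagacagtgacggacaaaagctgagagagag
Tnni3 promoter, chr7:4522479-4522778, minus strand: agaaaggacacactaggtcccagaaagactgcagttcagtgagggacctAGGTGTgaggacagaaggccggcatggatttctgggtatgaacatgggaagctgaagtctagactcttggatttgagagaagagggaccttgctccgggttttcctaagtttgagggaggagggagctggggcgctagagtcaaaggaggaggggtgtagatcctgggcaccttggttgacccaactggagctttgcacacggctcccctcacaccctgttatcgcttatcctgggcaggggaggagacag
Pln promoter, chr10:53337436-53337735, plus strand: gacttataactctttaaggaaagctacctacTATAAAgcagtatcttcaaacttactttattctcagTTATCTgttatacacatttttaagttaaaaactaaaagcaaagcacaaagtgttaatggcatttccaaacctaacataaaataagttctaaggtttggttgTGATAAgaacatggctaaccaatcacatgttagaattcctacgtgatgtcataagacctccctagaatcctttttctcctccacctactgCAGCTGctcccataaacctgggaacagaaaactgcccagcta

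RefSeq windows were matched by symbol for 33 of the 39 genes, giving 43 windows, and 24 of the 33 switched direction between the experiments in the sense given further on. Myom2, Tcap, Nexn, Xirp1, Atp2a2 and Cryab had no window. The motifs searched were the CArG box of serum response factor and the MEF2 site, both by their usual consensus, AGATAA and TGATAA for GATA factors, AAGTGG and AAGTGC for NKX2-5, AGGTGT for T-box factors, the E-box CAGCTG, the MCAT element CATTCC and the TATA box TATAAA. In the windows of these genes no match overlapped a match to another of these motifs. A CArG box stood in 8 of the 43 windows (18.6%), against 1.63% of all 32851 windows of the same length. Its 7 genes were Acta1, Actc1, Ldb3, Myl3, Myl7, Myom1 and Nebl, and all 7 switched direction, Acta1 and Myom1 only through log2 intensities below 5. A MEF2 site stood in 14.0% of the windows against 3.19% of all, in Casq2, Mybpc3, Myoz2, Synpo2l and Ttn, of which 3 of 5 switched. CATTCC was found in 27.9% against 14.7%, and its 12 genes all switched direction. CAGCTG was found in 32.6% against 16.3%, and 7 of its 12 genes switched. The other shares were 16.3% against 11.2% for AGATAA, 11.6% against 9.05% for TGATAA, 16.3% against 16.9% for AAGTGG, 4.65% against 12.2% for AAGTGC, 18.6% against 13.7% for AGGTGT and 18.6% against 13.6% for TATAAA. In that order 5 of 6, 3 of 5, 5 of 6, 2 of 2, 4 of 7 and 5 of 8 of their genes switched. Several genes had more than 1 window, so windows are not independent, and these matches are letters in a window rather than shown binding sites.

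The labels were checked against tissue markers first. Of 13 foregut endoderm markers, 11 exceeded mesoderm/ectoderm at least 2-fold in each experiment and 0 were lower, among them Foxa1 (10.92 and 10.82 on the endoderm arrays, 4.13 and 4.89 on the mesoderm/ectoderm arrays). Of 10 neural plate markers, 7 were at least 2-fold lower in endoderm in both. One description field names foregut endoderm 2 as ectoderm, against its title and tissue labels, and the array carried the endoderm markers. The array labelled mesoderm/ectoderm 1, by contrast, had few heart muscle genes above a log2 intensity of 5, a level taken here as the limit between dim and measured. Only 4 of the 39 were above it, against 32 on mesoderm/ectoderm 2, while 39.9% and 42.3% of all genes were above it on these arrays. On foregut endoderm 1, 25 of the 39 were above 5, and on foregut endoderm 2 it was 10, against 41.9% and 42.2% of all genes. The 2 arrays of either tissue therefore stood apart for these genes, and results are given per array. In pooled tissue, fewer heart muscle cells and less RNA per cell cannot be told apart. The lowest log2 intensity of an array was between 2.25 and 2.28, and between 41.3% and 44.7% of its probe sets lay within 0.1 log2 units of it, here called the floor. The size of a difference against a dim level depends on the normalization of dim probe sets, so the values of the arrays are given, with the difference after setting values below 5 to 5 where a size matters.

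**Figure D1:**
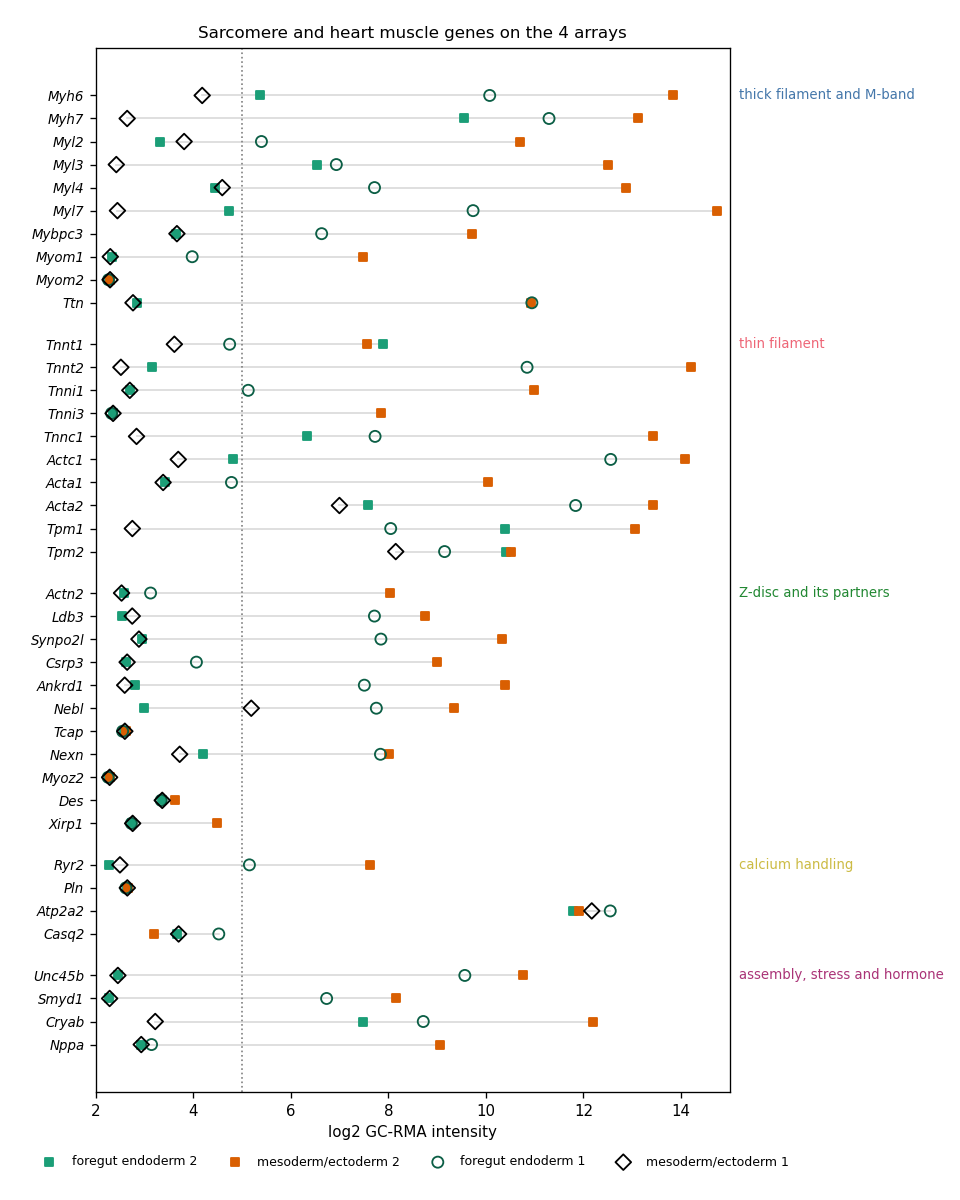
Log2 GC-RMA intensity (x axis) of the 39 genes (y axis, grouped by role) on each array. Green circles and squares are foregut endoderm 1 and 2, black diamonds and orange squares are mesoderm/ectoderm 1 and 2, and the dotted line marks 5. Orange squares lie rightmost for most genes and black diamonds lie mostly left of the line, where 4 of 39 genes exceed it.

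The most frequent course was a switch of direction. Of the 39 genes, 26 were at least 2-fold higher in foregut endoderm than in mesoderm/ectoderm in experiment 1 and at least 2-fold lower in experiment 2. The same held for 195 of all 18193 genes (1.07%), and the opposite switch for 0 of the 39 and 0.033% of all genes. At 4-fold, 22 of the 39 switched (0.396% of all genes), and with all values below 5 set to 5 it was 20 (0.627% of all genes). The genes lost with values below 5 set to 5 were Myl2, Myom1, Tnni1, Acta1, Csrp3 and Ryr2. Each then differed by less than 2-fold in experiment 1. The switch counts by motif given before and by role further on include them. A difference of at least 2-fold that kept its direction across the experiments was found in 0 of the 39 (background 1.81% higher and 0.654% lower in endoderm). That count uses the brightest probe set of each gene, and a dimmer probe set of Tpm1 did keep its direction, as given further on. Experiment 1 alone had 28 genes at least 2-fold higher in endoderm (background 6.53%) and 0 lower (background 1.79%). In experiment 2 the counts were 0 higher (background 5.22%) and 30 lower (background 4.77%). In experiment 1 the median difference of the 39 genes, endoderm minus mesoderm/ectoderm, was 2.66 log2 units, and in experiment 2 it was -5.90, beside -0.03 and -0.02 over all genes. With 1 array of each tissue in an experiment, the difference between the experiments had no test.

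**Figure D2:**
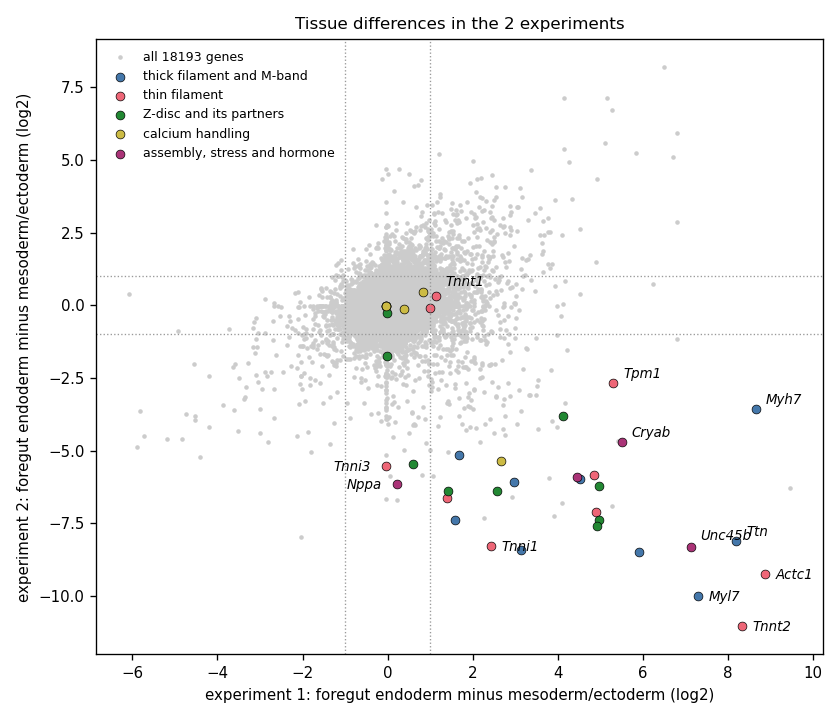
Difference between foregut endoderm and mesoderm/ectoderm (log2) in experiment 1 (x axis) and experiment 2 (y axis) for all 18193 genes in grey and the 39 heart muscle genes coloured by role, with dotted lines at 2-fold. Coloured points fill the lower right, where 26 of them lie beyond 2-fold on both axes, and none lies beyond 2-fold in the upper right or lower left.

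Mesoderm/ectoderm 2 was the array with the highest level for most of the genes. There 28 of the 39 were at least 2-fold above each of the other 3 arrays (background 2.52%), and 0 were so on any other array (1.35% of all genes on foregut endoderm 1, 1.92% on foregut endoderm 2 and 0.731% on mesoderm/ectoderm 1). Leaving out mesoderm/ectoderm 1 the count was 28 (3.02% of all genes). Leaving out foregut endoderm 1 or foregut endoderm 2 it was 30 (3.16% and 7.6% of all genes). Between the mesoderm/ectoderm arrays, 32 genes were at least 2-fold higher on array 2 and 0 lower, against 11.3% and 5.61% of all genes. Between the endoderm arrays the order was the other way, with 24 genes at least 2-fold lower on array 2 (background 6.62%) and 3 higher (background 7.83%).

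Thick filament genes switched in 9 of 10 cases. In what follows values are log2 intensities of array 1, then array 2, of the tissue named. Myl7, the atrial regulatory light chain, was at 9.74 and 4.72 in endoderm and at 2.44 and 14.74 in mesoderm/ectoderm. With values below 5 set to 5, the difference between endoderm and mesoderm/ectoderm was 4.74 in experiment 1 and -9.74 in experiment 2. Myh6 and Myh7 encode the alpha and beta cardiac myosin heavy chains, the motor proteins themselves. Myh6 was at 10.08 and 5.36 in endoderm and at 4.18 and 13.84 in mesoderm/ectoderm. Myh7 was at 11.29 and 9.55 in endoderm and at 2.64 and 13.11 in mesoderm/ectoderm, so that it was dim on mesoderm/ectoderm 1 alone. In experiment 2, where both arrays were measured, it was 11.9-fold lower in endoderm.

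In the other light chains mesoderm/ectoderm 2 was again highest and foregut endoderm 1 next, while the lowest array varied. Myl2, the ventricular regulatory light chain, was at 5.39 and 3.31 in endoderm and at 3.81 and 10.70 in mesoderm/ectoderm. Myl3, the ventricular essential light chain, was at 6.93 and 6.53 in endoderm, which is nearly level, and at 2.42 and 12.50 in mesoderm/ectoderm. Myl4, the atrial essential light chain, was at 7.71 and 4.45 in endoderm and at 4.59 and 12.87 in mesoderm/ectoderm. For each of these light chains foregut endoderm 1 lay between the 2 mesoderm/ectoderm arrays, so the groups overlapped.

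Among the large structural proteins, the giant elastic protein gene Ttn was at 10.94 and 2.83 in endoderm and at 2.76 and 10.93 in mesoderm/ectoderm. Its levels on foregut endoderm 1 and mesoderm/ectoderm 2 were thus close, and both other arrays were dim. Mybpc3, the cardiac myosin binding protein C gene, was at 6.63 and 3.65 in endoderm and at 3.66 and 9.71 in mesoderm/ectoderm. Myom1, which crosslinks thick filaments at the M-band, was at 3.97 and 2.32 in endoderm and at 2.29 and 7.48 in mesoderm/ectoderm, above 5 on the last array only. Myom2, its later M-band relative, was at the floor on all 4 arrays, as was 1 other of the 39 genes, Myoz2 (background 27.3%).

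Thin filament genes switched in 7 of 10 cases, and 10 of 10 were above 5 on mesoderm/ectoderm 2. Tnnt2, the tropomyosin-binding troponin subunit of the heart, was at 10.84 and 3.16 in endoderm and at 2.51 and 14.20 in mesoderm/ectoderm. With values below 5 set to 5 its differences were 5.84 and -9.20. Actc1, the cardiac alpha-actin, was at 12.56 and 4.82 in endoderm and at 3.69 and 14.08 in mesoderm/ectoderm, with differences of 7.56 and -9.08 on the same terms. Tnnc1, the calcium sensor troponin C of heart and slow muscle, was at 7.73 and 6.32 in endoderm and at 2.83 and 13.42 in mesoderm/ectoderm. In each of these 3 genes mesoderm/ectoderm 1 had the lowest value and mesoderm/ectoderm 2 the highest.

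The inhibitory subunits differed between themselves. Tnni1, the slow skeletal troponin I that serves the embryonic heart, was at 5.12 and 2.70 in endoderm and at 2.69 and 10.98 in mesoderm/ectoderm. Tnni3, the cardiac form that replaces it later, was at the floor on 3 arrays and at 7.86 on mesoderm/ectoderm 2. Its difference in experiment 2 was -5.52, and -2.86 with values below 5 set to 5. Tnnt1, the slow skeletal troponin T, took another course, at 4.74 and 7.88 in endoderm and at 3.61 and 7.56 in mesoderm/ectoderm. Both arrays numbered 2 were thus high for Tnnt1, and its tissue differences were 1.13 and 0.31.

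The other actins and the tropomyosins took varied courses. Acta1, the skeletal alpha-actin, was at 4.78 and 3.41 in endoderm and at 3.38 and 10.04 in mesoderm/ectoderm. Acta2, the smooth muscle actin that is also made in the early heart, was measured on all arrays, at 11.84 and 7.59 in endoderm and at 6.99 and 13.43 in mesoderm/ectoderm, and switched by 4.85 and -5.84. Tpm1, the main striated tropomyosin gene, was at 8.05 and 10.40 in endoderm and at 2.75 and 13.06 in mesoderm/ectoderm. Tpm2, a tropomyosin of slow and smooth muscle, was at 9.15 and 10.41 in endoderm and at 8.15 and 10.51 in mesoderm/ectoderm. Tpm1, Tpm2 and Tnnt1 were the 3 genes at least 2-fold higher on foregut endoderm 2 than on foregut endoderm 1.

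Z-disc genes switched in 6 of 11 cases, and 0 of 11 were above 5 on foregut endoderm 2. Ankrd1, a stress-responsive partner of titin, was at 7.51 and 2.79 in endoderm and at 2.59 and 10.39 in mesoderm/ectoderm. Synpo2l, an actin-binding protein of the Z-disc, was at 7.85 and 2.95 in endoderm and at 2.88 and 10.34 in mesoderm/ectoderm. Ldb3, a PDZ and LIM protein that binds alpha-actinin, was at 7.71 and 2.53 in endoderm and at 2.74 and 8.76 in mesoderm/ectoderm. In these 3 genes foregut endoderm 2 and mesoderm/ectoderm 1 were both dim.

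Nexn, an actin filament binding protein, was at 7.84 and 4.20 in endoderm and at 3.72 and 8.01 in mesoderm/ectoderm. Nebl, the nebulin-like protein of the heart Z-disc, was at 7.75 and 2.98 in endoderm and at 5.19 and 9.35 in mesoderm/ectoderm, and was the gene of the 39 that was at least 2-fold lower on foregut endoderm 2 than on mesoderm/ectoderm 1. Csrp3, the muscle LIM protein, was at 4.06 and 2.62 in endoderm and at 2.64 and 9.01 in mesoderm/ectoderm. Actn2, the alpha-actinin that crosslinks thin filaments at the Z-disc, was at 3.12 and 2.57 in endoderm and at 2.52 and 8.03 in mesoderm/ectoderm. Csrp3 and Actn2 were therefore above 5 on mesoderm/ectoderm 2 alone.

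The remaining Z-disc and filament genes were dim on every array. Xirp1, an actin-binding protein of the intercalated disc, reached 4.49 on mesoderm/ectoderm 2 against 2.73 to 2.75 elsewhere. Des, the muscle intermediate filament, was between 3.34 and 3.62, Tcap, the titin cap of the Z-disc, between 2.55 and 2.62, and Myoz2, a calsarcin that ties calcineurin to the Z-disc, at the floor throughout. Of the 39 genes, 7 were at or below 5 on all arrays (background 53.8%), and for these no course over the arrays can be read.

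Of the 4 calcium handling genes, 1 switched, and it did so only through values below 5. Ryr2, the calcium release channel of the cardiac sarcoplasmic reticulum, was at 5.15 and 2.27 in endoderm and at 2.49 and 7.62 in mesoderm/ectoderm. With values below 5 set to 5, its difference in experiment 1 was 0.15. Atp2a2, the SERCA pump that takes calcium back up and is made in most tissues, was at 12.55 and 11.78 in endoderm and at 12.17 and 11.92 in mesoderm/ectoderm, a range within 0.78 log2 units. This holds for its brightest probe set, and other probe sets of Atp2a2 did switch, as given further on. Pln, the inhibitor of that pump, lay between 2.61 and 2.65. Casq2, the calcium-storing calsequestrin of the heart, was at 4.52 and 3.66 in endoderm and at 3.70 and 3.20 in mesoderm/ectoderm and so dim on all of them.

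Of the 4 assembly, stress and hormone genes, 3 switched. Unc45b, a myosin chaperone, was at 9.57 and 2.45 in endoderm and at 2.45 and 10.76 in mesoderm/ectoderm, with differences of 4.57 and -5.76 once values below 5 were set to 5. Smyd1, a muscle methyltransferase needed for myofibril assembly, was at 6.73 and 8.16 on foregut endoderm 1 and mesoderm/ectoderm 2 and at the floor on both other arrays. Cryab, the small heat shock protein of muscle and lens, was at 8.71 and 7.49 in endoderm and at 3.22 and 12.19 in mesoderm/ectoderm. Nppa, the atrial natriuretic peptide of the forming chambers, was at 3.14 and 2.91 in endoderm and at 2.93 and 9.06 in mesoderm/ectoderm, above 5 on the last array alone.

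These genes fell into 3 main courses by the arrays on which they passed 5. There were 15 above it on foregut endoderm 1 and mesoderm/ectoderm 2 alone (background 0.429%), namely Myl2, Myl4, Myl7, Mybpc3, Ttn, Tnnt2, Tnni1, Actc1, Ldb3, Synpo2l, Ankrd1, Nexn, Ryr2, Unc45b and Smyd1. Another 6 were above it on mesoderm/ectoderm 2 alone (background 1.1%), and these were Myom1, Tnni3, Acta1, Actn2, Csrp3 and Nppa. A further 6 were above it on every array but mesoderm/ectoderm 1 (background 1.25%), and these were Myh6, Myh7, Myl3, Tnnc1, Tpm1 and Cryab. In Tpm1 this holds for the brightest probe set, as another was at 6.75 on mesoderm/ectoderm 1. Acta2, Tpm2 and Atp2a2 passed 5 on all arrays (3 genes, background 37.2%), Tnnt1 on both arrays numbered 2, and Nebl on all but foregut endoderm 2. Some genes lay close to 5, so their course depends on that limit. On foregut endoderm 1, Myl2, Tnni1 and Ryr2 were at 5.39, 5.12 and 5.15 and Acta1 at 4.78. On foregut endoderm 2, Myh6 was at 5.36 and Actc1 at 4.82.

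Foregut endoderm 2 and mesoderm/ectoderm 1, the arrays with the lower levels, were set against each other as well. Foregut endoderm 2 was at least 2-fold higher for 10 genes (background 11.6%) and lower for 1 (background 5.33%). For Tpm1, Myh7, Cryab, Tnnt1, Myl3, Tnnc1 and Myh6 foregut endoderm 2 was above 5 and mesoderm/ectoderm 1 dim. In Tpm1 this holds for the brightest probe set, as 1423721_at was measured on both arrays. Tpm2 was measured on both, with a difference of 2.26, and Myl7 and Actc1 were dim on both. No Z-disc or calcium handling gene was among the 10.

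Foregut endoderm 1 and mesoderm/ectoderm 2, the arrays with the higher levels, come from different experiments and tissues, and are compared as 1 array against 1 with no test. On mesoderm/ectoderm 2, 30 of the 39 genes were at least 2-fold higher (background 9.12%) and 1, the dim Casq2, lower (background 9.28%). The sizes varied widely among the 25 genes above 5 on both arrays, from -0.63 for Atp2a2 to 5.86 for Tnni1, with a median of 2.49 log2 units. By role the median was 4.38 for 8 thick filament genes, 3.36 for 7 thin filament genes and 1.60 for 5 Z-disc genes. Ttn (-0.01), Nexn (0.17), Atp2a2 (-0.63), Ldb3 (1.05) and Unc45b (1.20) were nearest to equal. Tnnc1 (5.69), Myl3 (5.57), Myl2 (5.31), Myl4 (5.15), Tpm1 (5.01) and Myl7 (5.00) were farthest apart after Tnni1. For Tpm1 and Atp2a2 the place depended on the probe set. Another Tpm1 probe set, 1423721_at, was at 8.60 on foregut endoderm 1 and 8.24 on mesoderm/ectoderm 2. For Atp2a2, 1416551_at was at 10.69 and 12.08 on these arrays. Genes dim on foregut endoderm 1 included Nppa, with a difference of 5.92, and Tnni3, with 5.54, sizes that depend on the normalization of dim probe sets.

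**Figure D3:**
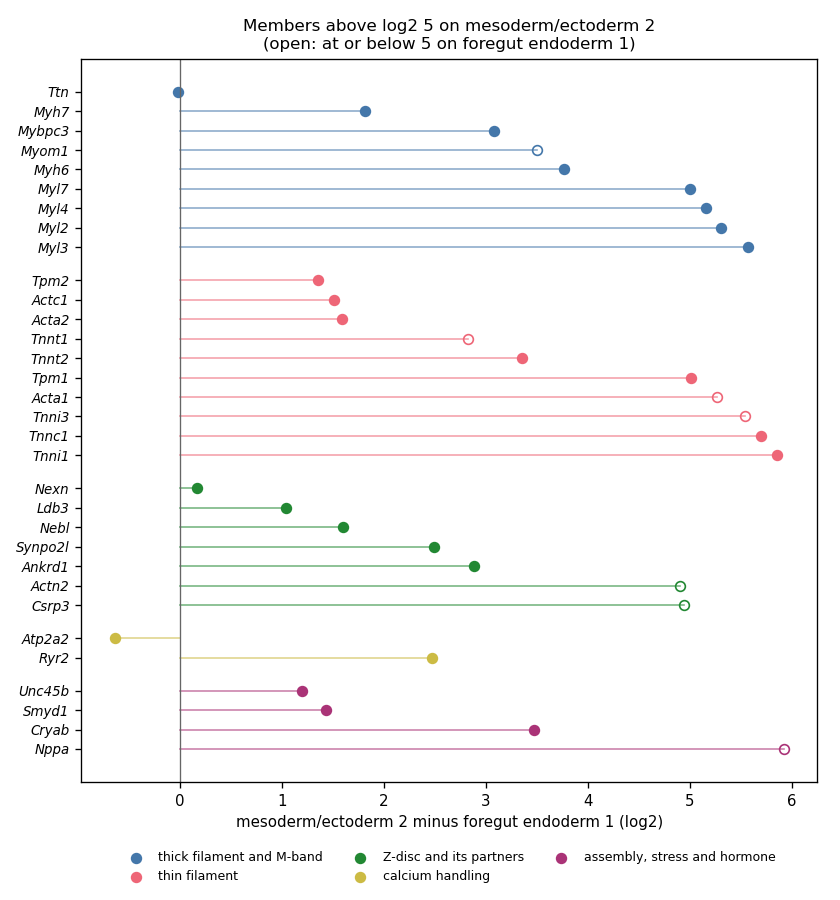
Log2 difference between mesoderm/ectoderm 2 and foregut endoderm 1 (x axis) for the 32 genes above 5 on mesoderm/ectoderm 2, ordered within each role. Filled points were above 5 on both arrays and open points only on mesoderm/ectoderm 2, so open points rest on a dim level. Ttn and Nexn lie near 0, and the myosin light chains lie between 5.00 and 5.57.

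The tissues were then compared over both experiments. By limma without a term for the experiment, 0 of the 39 genes passed an adjusted p under 0.05 in either direction, the lowest adjusted p among them being 0.641, and 0 had an unadjusted p under 0.05. Over all 18193 genes limma called 0 (background 0%), with a lowest adjusted p of 0.0589 and 720 genes (3.96%) at an unadjusted p under 0.05. Blocking on the replicate number, limma also called 0 of the 39, with a lowest adjusted p of 0.539. The mean difference was -1.36 ± 6.16 log2 units for Tnnt2, -1.36 ± 5.85 for Myl7 and -0.19 ± 5.71 for Actc1 (SE from limma, n = 2 arrays per tissue), so the error was several times the difference. Within a tissue the 2 arrays had an SD of 3.40 log2 units for the median gene of the 39, against 0.18 for the median of all genes. The medians cover genes of unlike brightness. At or below 5 on all arrays, where the floor shrinks the spread, were 53.8% of all genes and 7 of the 39.

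The direction of the average rested on single arrays. The median of the fitted differences was -0.73 over the 39 genes, beside -0.02 over all genes. Leaving out foregut endoderm 1 gave -2.76 and leaving out foregut endoderm 2 gave -0.03. Without mesoderm/ectoderm 1 the median was -4.09, and without mesoderm/ectoderm 2 it was 1.49. Both endoderm arrays lay above both mesoderm/ectoderm arrays for 0 of the 39 genes (background 9.94%) and below them for 7 (background 41%). Of these 7, Tnni3 was the gene above 5 on any array, and Myom2, Tcap, Myoz2, Des, Xirp1 and Pln were dim, where the order follows the lowest values of the arrays. With 2 arrays against 2, the smallest two-sided p an exact permutation test allows is 0.333.

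Regulators of heart muscle genes were in part high on the same arrays. Of 15 cardiac transcription regulators, 6 switched direction (background 1.07%) and 0 passed limma's test. At least 2-fold higher in endoderm each time was 1, Isl1 (background 1.81%). Myocd, the coactivator of serum response factor, was at 11.91 and 3.94 in endoderm and at 2.46 and 10.24 in mesoderm/ectoderm. Mef2c, a MADS-box factor of muscle, was at 10.67 and 3.62 in endoderm and at 7.75 and 10.22 in mesoderm/ectoderm. Tbx20, a T-box factor of the heart, was at 9.65 and 9.93 in endoderm and at 2.85 and 11.10 in mesoderm/ectoderm, and Isl1, a LIM homeodomain factor of heart progenitors and pharyngeal endoderm, at 10.84 and 10.82 against 6.32 and 8.20. Across the 15 regulators the median difference between mesoderm/ectoderm 2 and foregut endoderm 1 was -0.05, beside 2.49 for the 39 heart muscle genes and 0.03 over all genes.

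A second list of 40 heart muscle genes, 36 of them measured, had the switch in 3 genes (background 1.07%). On all arrays 20 of the 36 were at or below 5, a share near that of all genes (background 53.8%). The gap junction gene Gja1 was between 13.43 and 14.07, the tropomyosin gene Tpm3 between 12.59 and 13.13 and Tpm4 between 11.51 and 12.31, all on every array. Pdlim5, a PDZ and LIM protein of the Z-disc, was at 8.96 and 6.51 in endoderm and at 7.08 and 8.72 in mesoderm/ectoderm. In values chosen after they were seen, Trdn (7.42), Trim63 (7.39), Cox7a1 (6.35) and Nppb (6.16) were above 5 on mesoderm/ectoderm 2 alone, with the other arrays between 2.25 and 2.85.

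Some markers of vessels and blood were high on the same arrays as the heart muscle genes. Of 9 endothelial markers 6 switched direction (background 1.07%), and 5 of these 6 were above 5 on some array. Among the 5 were Kdr (7.88 and 3.65 in endoderm, 4.78 and 6.57 in mesoderm/ectoderm) and Erg (7.01 and 2.94, 3.51 and 5.72), while Pecam1 was at the floor throughout. The summed intensity of the 9 markers was 649 and 79.3 on the endoderm arrays and 132 and 439 on the mesoderm/ectoderm arrays. Of 7 red blood cell markers 2 switched, Hbb-bh1 and Hbb-y, and the list's sum was 2394 and 219 in endoderm and 420 and 2456 in mesoderm/ectoderm, with Alas2 and Hba-a1 at the floor. Of 8 head mesenchyme and crest markers 2 switched (background 1.07%), and the sum of the 8 was 1036 and 266 against 2020 and 1553. For the 39 heart muscle genes the sums were 28072 and 8060 in endoderm and 5355 and 156527 in mesoderm/ectoderm. The broadly made Atp2a2 alone gave 6001 and 3512 in endoderm and 4613 and 3868 in mesoderm/ectoderm. It thus made up most of the sum on mesoderm/ectoderm 1. The part of these cell types in the heart muscle values was not tested.

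**Figure D4:**
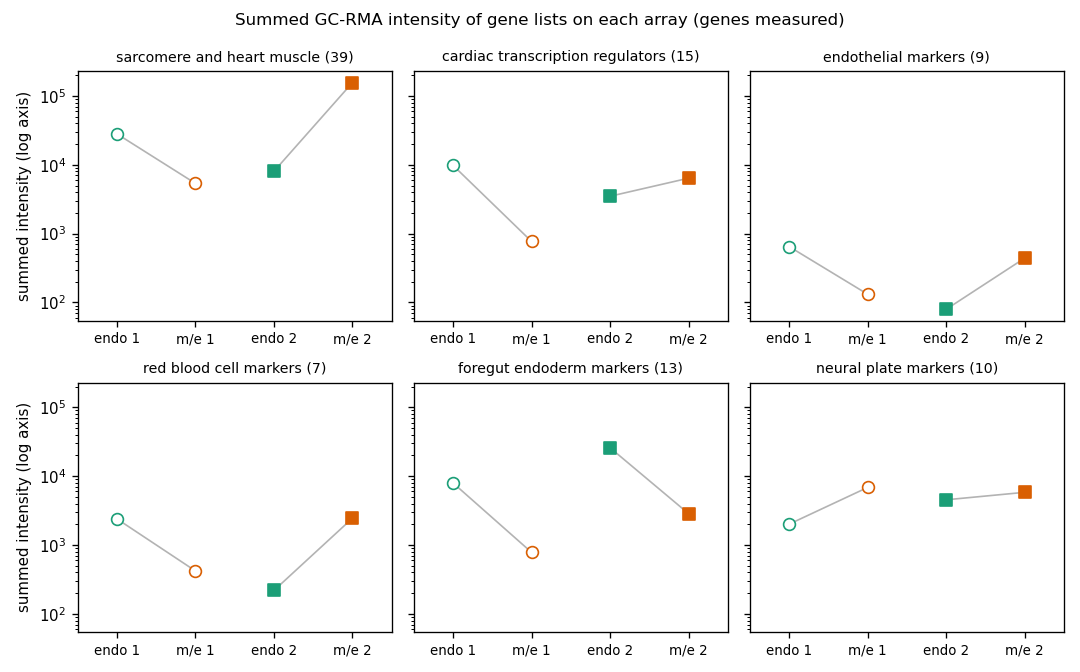
Summed GC-RMA intensity (y axis, log scale) of 6 gene lists on each array, with the arrays of an experiment joined by a line (endo, foregut endoderm; m/e, mesoderm/ectoderm). Lines for heart muscle, endothelial and red blood cell genes slope down in experiment 1 and up in experiment 2, whereas foregut endoderm markers slope down in both. Most of the heart muscle sum on m/e 1 is Atp2a2.

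Probe sets of the same gene did not always take the same course. Of the 85 probe sets, 49 were above 5 on some array and 34 of these switched. In 10 genes more than 1 probe set was above 5, and in 5 of them, Atp2a2, Cryab, Myl3, Synpo2l and Tpm1, these differed in whether they switched. Atp2a2 had a pair that did, unlike the brightest one described so far. Probe set 1416551_at was at 10.69 and 9.04 in endoderm and at 9.52 and 12.08 in mesoderm/ectoderm, and 1452363_a_at at 9.38 and 7.39 and at 7.51 and 10.56. In Tpm1, 1423721_at was at 8.60 and 9.22 in endoderm and at 6.75 and 8.24 in mesoderm/ectoderm. It was higher in endoderm in both experiments, where the brightest probe set was lower in the second. Probe set 1456623_at was at least 2-fold higher in endoderm in both, at 7.54 and 7.94 against 5.27 and 6.42. The Tpm1 probe set 1447713_at switched like the brightest, with differences of 1.62 and -3.50. In Cryab, 1416455_a_at was above 5 on mesoderm/ectoderm 2 alone, at 7.93. Actins and tropomyosins have near-identical relatives, and whether their probe sets tell these apart was not tested.

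**Figure D5:**
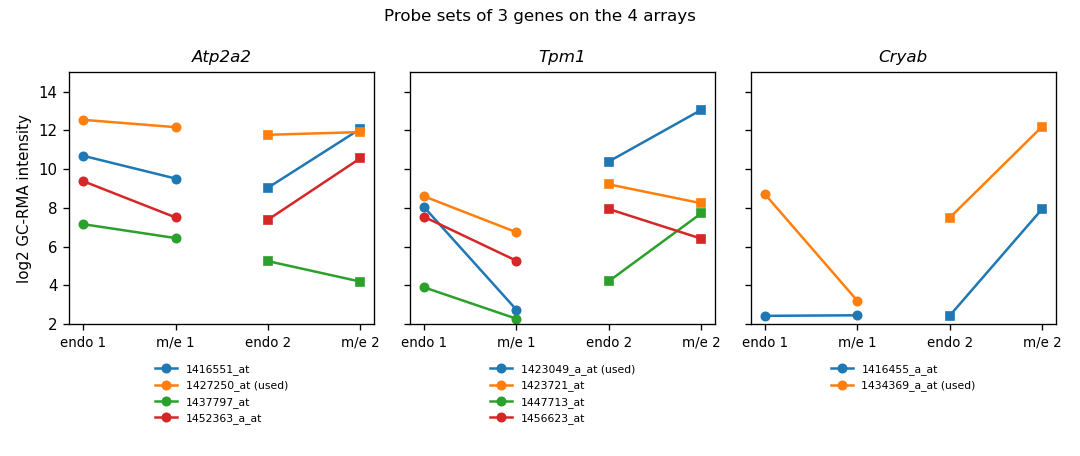
Log2 GC-RMA intensity (y axis) of each probe set of Atp2a2, Tpm1 and Cryab that was above 5 on some array, with the arrays of an experiment joined by a line. The probe set marked used is the one with the highest mean. For Atp2a2 it is nearly level, while 1416551_at and 1452363_a_at are highest on mesoderm/ectoderm 2.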

How the data were processed

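RNA amplified in 2 rounds was measured on Affymetrix MOE430 arrays (labels' protocols). Each deposited intensity belongs to 1 probe set on 1 array. The authors normalized with GC-RMA, run in GenePattern according to the design text, while RMA appears per the submitters' processing notes. Software version and genome build were not given in the sources used. Values were read as linear from their range. GC-RMA pulls dim probe sets to a near-constant floor, which shrinks their spread.

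Here 64 control probe sets were left out and log2 was taken with values set to at least 1. Platform annotation gave 1 symbol to 34945 probe sets, several to 932 (not named) and none to 9160. Of 18193 genes, 18032 matched RefSeq (GRCm38.p6) by gene identifier, and 0 symbols changed. The tissue test was two-sided limma 3.58.1 under R 4.3.3 (lmFit, eBayes) with Benjamini-Hochberg adjustment over all genes, checked on simulated data. Sample numbers pair the samples, as the labels' protocols give each number its own way of dissection. The changes of the 2 tissues between arrays had a correlation of 0.47 across the 7797 genes above 5 on at least 2 arrays. Each array is 1 pool, and the 2 pools of a tissue also differ in dissection and experiment. The p-values of the fit without a block therefore rest on a spread that holds all of these. Every one of the 39 genes could be named. From other lists up to 4 genes with the highest value on any array were named, and up to 4 at least 2-fold apart with the same sign in both experiments. Marker genes at the floor were named in addition, after their values were seen. The members and lists were chosen with earlier results of these data known. Alternatives were the replicate block, an intensity filter, an intensity trend, all probe sets, quantile normalization, median centring, a floor, the mean of probe sets and each array left out. Protein identity between related genes was planned and not run here. Precision is limited by the number of arrays, 2 for a tissue.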

Additional observations from a re-analysis of the deposited data

Results flagged for a closer look

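The tissue difference had opposite signs in the 2 experiments, and at least 2-fold in each, for 26 heart muscle genes. This difference between the experiments was not tested, since each held 1 array of either tissue. The values that follow are the log2 difference between foregut endoderm and mesoderm/ectoderm in experiment 1 minus that in experiment 2. Most rest on dim levels on 1 or 2 of the arrays, where the size depends on the normalization. For the thick filament it was 17.31 for Myl7, 16.28 for Ttn, 14.38 for Myh6, 12.22 for Myh7, 11.55 for Myl4, 10.48 for Myl3, 9.03 for Mybpc3, 8.98 for Myl2 and 6.84 for Myom1. For the thin filament it was 19.38 for Tnnt2, 18.13 for Actc1, 11.99 for Tnnc1, 10.71 for Tnni1, 10.69 for Acta2, 8.04 for Acta1 and 7.97 for Tpm1. Z-disc genes gave 12.51 for Ankrd1, 12.35 for Synpo2l, 11.19 for Ldb3, 8.94 for Nebl, 7.93 for Nexn and 7.80 for Csrp3. The calcium channel gene Ryr2 gave 8.01, and among the assembly and stress genes it was 15.44 for Unc45b, 10.35 for Smyd1 and 10.20 for Cryab.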

How the results depend on the processing

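Leaving out each array in turn left limma's count at 0 among the 39 genes and over all genes each time. The median tissue difference ranged from -4.09 to 1.49, positive without mesoderm/ectoderm 2. Those ranges were -7.51 to 4.79 for Myl7, -7.20 to 4.49 for Tnnt2 and -5.39 to 5.00 for Actc1, where the sign turned without foregut endoderm 2 (1.15, 2.49 and 3.68) and without mesoderm/ectoderm 2. An arm left with 1 array was assumed to vary like the other. The count of genes at least 2-fold highest on mesoderm/ectoderm 2, a result added after seeing the data, was 28 to 30 with an array left out. It was 28 after quantile normalization or median centring, 27 with values below 5 set to 5, 23 with the mean of all probe sets and 20 at 4-fold.

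With the replicate block limma called 0 of the 39 genes and 0 of all genes (lowest adjusted p 0.392 over all genes), so it changed no call. Over all genes limma called 1 after quantile normalization, 6 with log2 values below 5 set to 5, where most residual variances were 0 and eBayes is unreliable, and 2 with the mean of all probe sets, none of them among the 39. The cause was not tested. The switch count of 26 was between 20 (values below 5 set to 5) and 26 under the other settings. Median differences by experiment ran from 1.62 to 4.87 in the first and from -6.30 to -3.93 in the second. Of 312 differences of single genes by experiment under the scaling, floor and probe set alternatives, 280 moved by less than the SD within a tissue, 32 moved by more and 0 turned sign where the difference was at least 2-fold. That SD comes from the difference between arrays 1 and 2 of a tissue. It was wide for these genes, so a move below it can still be large. With values below 5 set to 5, the difference in experiment 1 fell from 2.66 to 0.15 for Ryr2 and from 1.68 to 0 for Myom1. Both are counted among the 280.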

Other observations

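Most skeletal muscle markers were dim, 10 of 12 being at or below 5 on all arrays (background 53.8%). Among smooth muscle markers 4 of 7 were, a share near that of all genes. Myod1, Myog, Myf5 and Myf6, the factors that commit cells to skeletal muscle, were at the floor throughout. Myl1, a myosin light chain of fast skeletal muscle, was at 8.23 on mesoderm/ectoderm 2 and between 2.34 and 2.42 elsewhere, and Mylpf was at 5.31 there. Of 7 smooth muscle markers 2 switched direction (background 1.07%), Tagln (4.77 and 5.51 in endoderm, 3.03 and 9.59 in mesoderm/ectoderm) and Synpo2 (6.75 and 4.55, 2.89 and 8.54). Cnn1, a calponin of smooth muscle, was at 6.34 on mesoderm/ectoderm 2 and between 2.27 and 2.29 elsewhere, and Myh11, the smooth muscle myosin, was at the floor throughout.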
